A study of Mus musculus with 8 samples.

Results

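Toll-like receptors 3, 7, 8 and 9 (genes Tlr3, Tlr7, Tlr8 and Tlr9) are the endosomal receptors of nucleic acids on a quantitative PCR plate of the Toll-like receptor (TLR) pathway. They were chosen by gene symbol, and all 4 of 4 were found among the 84 pathway genes read on the plate, which holds 9 Toll-like receptors. The plate was read on RNA of whole mouse spleen after 7 days of R848 or of PBS (Mock). The series has 8 samples in 6 groups, and each sample is RNA pooled from 3 mice. Each value used here is a delta-Ct: from the threshold cycle (Ct) of a gene the authors took away the mean Ct of Hprt1, Hsp90ab1 and Gapdh, the reference genes. A lower delta-Ct means more transcript, and 1 cycle is a 2-fold difference.

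The groups were spleens labelled TLR7-/- after R848, spleens labelled TLR7-/- after Mock, IFNAR-/- spleens after R848, IFNAR-/- spleens after Mock, C57BL/6 wild-type spleens after R848 and C57BL/6 wild-type spleens after Mock. The dose was 1 mg per kg per day in every R848 group. IFNAR-/- names mice labelled as lacking the type I interferon receptor. Each deficient strain gave 1 pooled sample per treatment. Wild-type spleens come from 2 experiments for each treatment, and the deposited table holds their mean alone. No value therefore has a replicate error, and the words "higher" and "lower" compare readings without a test. The sources used here do not state the sex and age of the mice, the design of the deficient alleles or the background of the deficient strains.

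TLR3 binds double-stranded RNA and signals through the adaptor TRIF (gene Ticam1). TLR7 and TLR8 bind single-stranded RNA and TLR9 binds DNA with unmethylated CpG motifs, and these receptors signal through MyD88. R848 (resiquimod) is a small-molecule agonist of TLR7 and, in humans, of TLR8. In mouse spleen TLR7 and TLR9 are known from B cells and plasmacytoid dendritic cells, TLR8 from myeloid cells, and TLR3 from dendritic cells, and several of these genes are known to be inducible by type I interferon.

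The gene order of the mouse genome, taken from RefSeq, places Tlr8 and Tlr7 as neighbouring protein-coding genes on the X chromosome, between Tmsb4x and Prps2. Tlr3 lies on chromosome 8 between Fam149a and Sorbs2, and Tlr9 on chromosome 9 between Twf2 and Alas1. Promoter windows of 250 bases before to 50 bases after a start site were found for 3 of the 4 genes, Tlr3, Tlr8 and Tlr9 (RefSeq, build GRCm38.p6). They are shown because the series includes mice labelled as lacking the interferon receptor, and they were searched on both strands for 3 motifs of interferon-signalling factors. The motifs were the IRF core AANNGAAA, the ISRE core, which is an IRF core with its GAAA preceded, after a gap of 2 bases, by another GAAA, and the GAS element TTCNNNGAA. Every ISRE core thus contains an IRF core. Capitals mark a match, and each sequence is written 5′ to 3′ on its gene's strand. The windows lie at chr8:45410331-45410630 (minus strand, Tlr3), chrX:167264280-167264579 (minus strand, Tlr8) and chr9:106222348-106222647 (plus strand, Tlr9).
Tlr3: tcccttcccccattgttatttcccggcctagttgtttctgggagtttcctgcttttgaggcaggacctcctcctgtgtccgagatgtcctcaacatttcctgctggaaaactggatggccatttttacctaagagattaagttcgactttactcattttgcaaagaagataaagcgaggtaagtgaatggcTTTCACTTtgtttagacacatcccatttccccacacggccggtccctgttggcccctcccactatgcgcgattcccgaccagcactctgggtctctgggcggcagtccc
Tlr8: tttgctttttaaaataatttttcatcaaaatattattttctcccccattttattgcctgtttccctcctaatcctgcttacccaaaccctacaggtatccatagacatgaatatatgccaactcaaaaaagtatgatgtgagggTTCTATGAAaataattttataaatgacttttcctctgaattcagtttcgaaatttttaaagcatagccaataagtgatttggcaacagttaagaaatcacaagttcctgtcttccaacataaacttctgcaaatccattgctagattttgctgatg
Tlr9: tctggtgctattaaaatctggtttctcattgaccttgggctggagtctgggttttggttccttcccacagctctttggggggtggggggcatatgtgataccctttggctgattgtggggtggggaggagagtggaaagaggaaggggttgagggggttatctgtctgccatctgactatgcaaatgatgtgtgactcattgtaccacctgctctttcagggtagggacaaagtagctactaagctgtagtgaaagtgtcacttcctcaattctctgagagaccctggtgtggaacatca
The Tlr3 window held 1 IRF core, on the reverse strand (TTTCACTT, beginning at position -59 from the start site). The Tlr8 window held 1 GAS element (TTCTATGAA, at position -106), and the Tlr9 window held none of the 3 motifs. Among 32817 mouse promoter windows of the same length, 3.43% held an ISRE core, 23.9% an IRF core and 8.29% a GAS element. The Tlr3 window is set at a start site 695 bases downstream of the outermost annotated start of the gene, whereas the windows of Tlr8 and Tlr9 are set at that outermost start. A match is a run of letters and not a measured binding site.

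Tlr9 gave the lowest delta-Ct of the 4 genes in every column, and Tlr3 the highest, level with Tlr7 in both wild-type columns. Primer efficiencies are unknown, so this order does not rank the transcripts. Tlr9 stood 13th to 24th of the 84 genes by delta-Ct, Tlr8 39th to 53rd, Tlr7 59th to 72nd and Tlr3 64th to 72nd. The authors set Ct values above 35 to 35, which gave each column a highest possible delta-Ct. This ceiling was 15.63 after R848 and 15.10 after Mock in spleens labelled TLR7-/-, 14.93 after R848 and 12.43 after Mock in IFNAR-/- spleens, and 13.15 in wild-type Mock. For wild-type R848 no ceiling could be found.

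Tlr3 read 10.43 after R848 and 10.50 after Mock in spleens labelled TLR7-/-, 10.83 after R848 and 12.43 after Mock in IFNAR-/- spleens, and 9.47 after R848 and 12.00 after Mock in wild-type spleens. Its level was thus highest in wild-type R848 and lowest in IFNAR-/- Mock, where it stood at the ceiling and its true level is only known to be no higher than that. Tlr7 read 9.33 after R848 and 9.20 after Mock in spleens labelled TLR7-/-, 8.23 after R848 and 10.43 after Mock in IFNAR-/- spleens, and 9.47 after R848 and 12.00 after Mock in wild-type spleens. Its level was highest in IFNAR-/- R848 and lowest in wild-type Mock.

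Tlr8 read 6.43 after R848 and 6.50 after Mock in spleens labelled TLR7-/-, 5.93 after R848 and 8.53 after Mock in IFNAR-/- spleens, and 7.37 after R848 and 8.25 after Mock in wild-type spleens. Tlr9 read 3.73 after R848 and 4.10 after Mock in spleens labelled TLR7-/-, 3.43 after R848 and 6.43 after Mock in IFNAR-/- spleens, and 3.97 after R848 and 5.00 after Mock in wild-type spleens. Both genes were highest in IFNAR-/- R848 and lowest in IFNAR-/- Mock. The distance between a gene's lowest and highest column was 3.77 cycles for Tlr7, 3.00 for Tlr9, 2.6 for Tlr8 and at least 2.96 for Tlr3, against a median of 2.65 over the 84 genes.

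**Figure D1:**
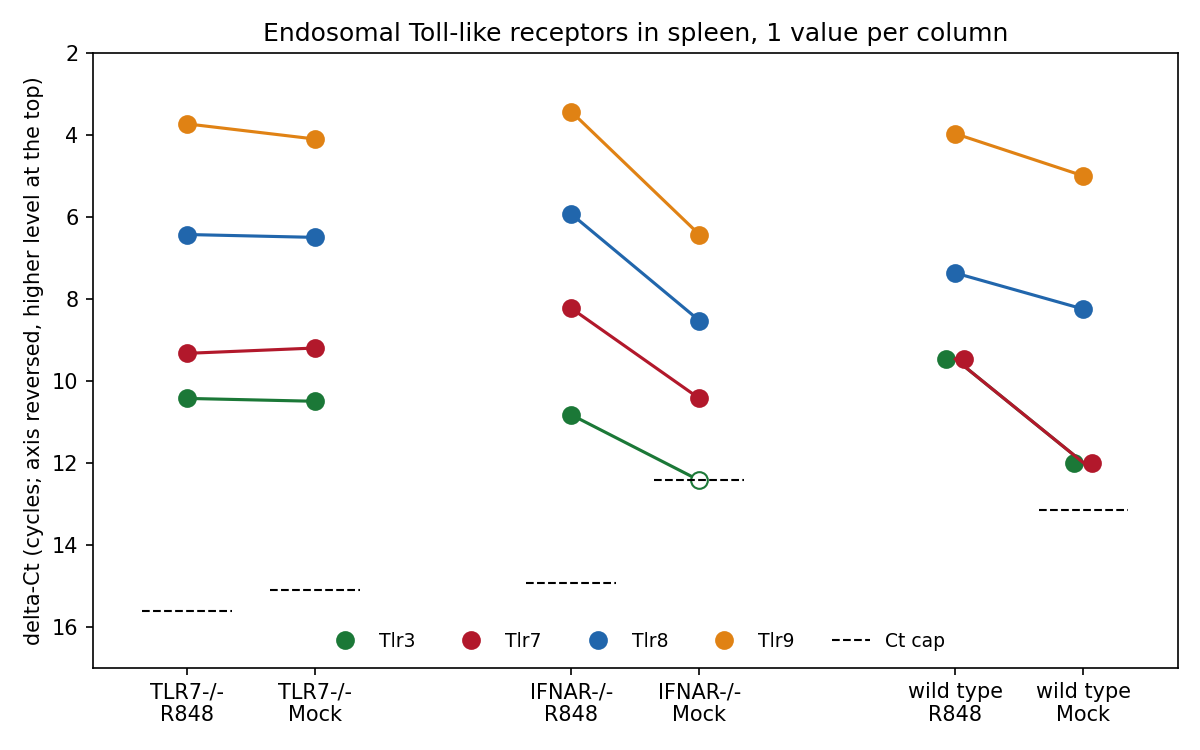
Level of the 4 endosomal receptor genes in the 6 columns, as delta-Ct in cycles on an axis turned so that more transcript lies higher, with R848 left of Mock in each strain. Each point is 1 reading (for wild type the authors' mean of 2 experiments), there are no error bars because no spread is given, and dashed lines mark the ceiling of a column, at which Tlr3 in IFNAR-/- Mock (open symbol) stands.

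Tlr7 is the gene whose deletion names a strain. Its transcript was read in spleens labelled TLR7-/-, at rebuilt Ct values of 28.7 after R848 and 29.1 after Mock, against at most 27.8 after R848 and 33.85 after Mock in wild type. By delta-Ct it was 6.96-fold higher in Mock spleens labelled TLR7-/- than in wild-type Mock, and after R848 the labels differed by 1.10-fold. The sources used here do not state whether the PCR product lies inside the deletion, so these readings do not check the label, and every direction drawn from spleens labelled TLR7-/- rests on it. No gene of the interferon receptor is among the 84, so the IFNAR-/- label was not checked by a reading.

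In wild-type spleens 3 of the 4 genes, Tlr3, Tlr7 and Tlr9, were at least 2-fold higher after R848, and none was 2-fold lower. Over all 84 genes, 38.1% were at least 2-fold higher and 13.1% at least 2-fold lower, with a median log2 difference of 0.41, against a median of 1.78 for the 4 genes. Tlr3 and Tlr7 were each 5.78-fold higher (log2 difference 2.53), which put them level at the 8th place of the 84 genes. Tlr9 was 2.04-fold higher (log2 difference 1.03), just past the 2-fold line. Tlr8 was 1.84-fold higher (log2 difference 0.88), just short of it. The authors' deposited table lists 5.79 for both Tlr3 and Tlr7. Normalized to Hprt1, to Gapdh or to all 5 housekeeping genes of the plate, Tlr9 lay under 2-fold, at log2 differences of 0.75, 0.80 and 0.53, and with Hsp90ab1 both Tlr8 and Tlr9 lay above it, at 1.40 and 1.55.

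Tlr3 and Tlr7 held the same delta-Ct values as each other in both wild-type columns. Of the 77 genes below the ceiling in wild type, these were the only 2 that shared both values with another gene. Such ties covered 4 of 78 genes in spleens labelled TLR7-/- and 0 of 69 in IFNAR-/- spleens. Readings lay on steps of 0.1 cycles, or 0.05 cycles in the wild-type means. In IFNAR-/- spleens the delta-Ct values of Tlr3 and Tlr7 differed by 2.6 cycles after R848, and in spleens labelled TLR7-/- by 1.1 after R848 and 1.3 after Mock. Both wild-type Mock readings lay 1.15 cycles below the ceiling. They are means of 2 experiments, and whether either experiment alone stood at a Ct of 35 cannot be read from the mean. Had it done so, the other experiment would have read 32.7.

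In IFNAR-/- spleens all 4 genes were at least 2-fold higher after R848, in a comparison in which 53.6% of the 84 genes were at least 2-fold higher and 2.38% at least 2-fold lower. The median log2 difference was 2.40 for the 4 genes and 1.25 for the 84. Tlr9 was 8.0-fold higher (log2 difference 3.00, 15th of 84), Tlr8 was 6.06-fold higher (2.6, 17th) and Tlr7 was 4.59-fold higher (2.20, 24th). Tlr3 was at least 3.03-fold higher, since its Mock reading stood at the ceiling. The order of the genes was thus Tlr9, Tlr8 and Tlr7 by measured size, while in wild type Tlr3 and Tlr7 stood above Tlr9 and Tlr8.

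The size of these values depends on the scaling. Actb and Gusb, housekeeping genes outside the reference set, were themselves higher after R848 in IFNAR-/- spleens, by log2 differences of 1.60 and 1.5, and in wild type by 0.63 and 1.88. The mean Ct of the reference genes was 20.07 after R848 and 22.57 after Mock in IFNAR-/- spleens, and 19.37 after R848 and 19.90 after Mock in spleens labelled TLR7-/-. In wild type it was at most 18.33 after R848, against 21.85 after Mock. With each column centred on its median gene, none of the 4 genes could be called 2-fold higher in IFNAR-/- spleens. There Tlr7, Tlr8 and Tlr9 had log2 differences of 0.15, 0.55 and 0.95, and the direction of Tlr3 could not be given. In wild type, Tlr3 and Tlr7 remained more than 2-fold higher at 1.30 each with that centring, while Tlr8 and Tlr9 were at -0.35 and -0.20.

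In spleens labelled TLR7-/- none of the 4 genes differed by 2-fold between R848 and Mock, in a comparison in which 4.76% of the 84 genes were at least 2-fold higher and 3.57% at least 2-fold lower. Log2 differences were 0.07 for Tlr3, -0.13 for Tlr7, 0.07 for Tlr8 and 0.37 for Tlr9. The median of the 4 genes, 0.07, was that of all 84 genes. Tlr9, the highest of the 4, stood 16th of the 84 genes at 1.29-fold. These values can be set only against the reading step of 0.1 cycles, since the error of a reading is unknown.

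**Figure D2:**
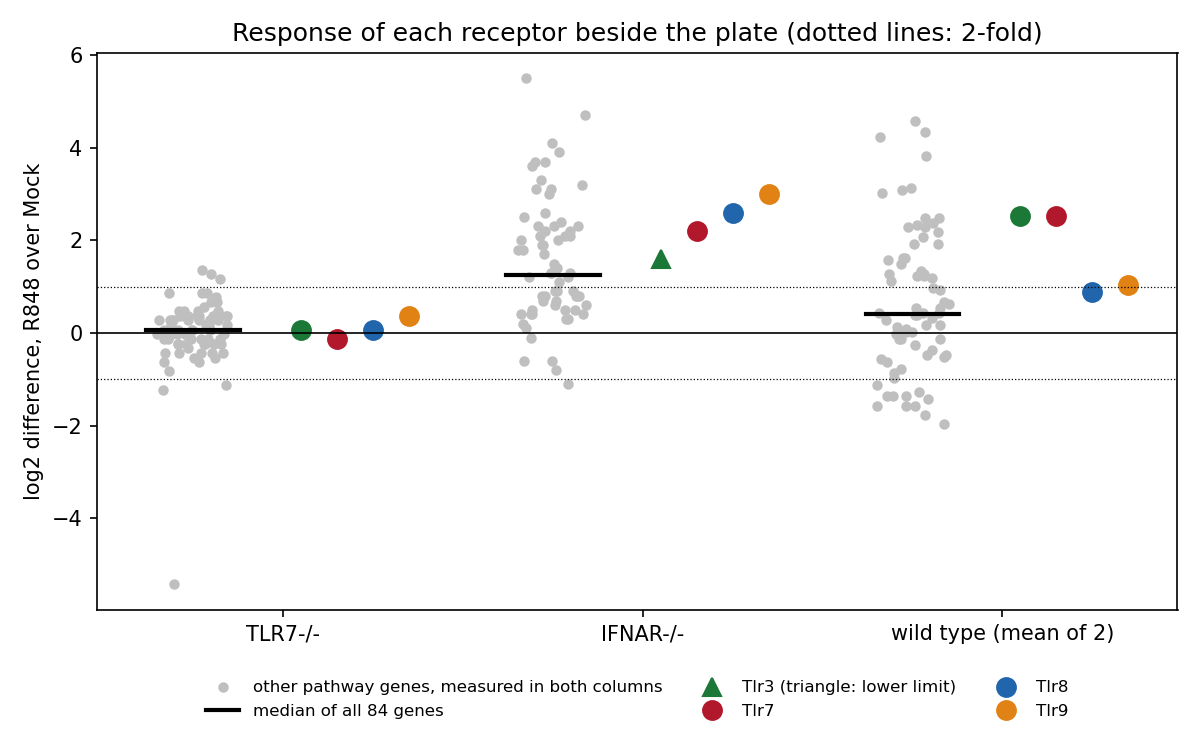
Log2 difference of R848 over Mock for the 4 genes in each strain, with the other pathway genes measured in both columns as grey points, the median of the 84 genes as a black bar and the 2-fold lines dotted. A triangle marks a lower limit (Tlr3 in IFNAR-/- spleens). All 4 genes lie between -0.13 and 0.37 in spleens labelled TLR7-/-, between 1.60 and 3.00 in IFNAR-/- spleens and between 0.88 and 2.53 in wild type.

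The responses were also set against that of wild type. Both such comparisons share the wild-type columns, and neither difference was tested. In spleens labelled TLR7-/- the log2 difference of R848 over Mock was lower than in wild type by 2.46 for Tlr3, and the values of the other genes were -2.66 for Tlr7, -0.81 for Tlr8 and -0.66 for Tlr9 (labelled TLR7-/- minus wild type). Of the 75 genes with both responses measured, 34.7% were lower by at least 1 log2 unit and 9.33% higher, and 2 of the 4 receptor genes, Tlr3 and Tlr7, were among those lower. The median was -0.56 over those 75 genes and -0.41 over all 84. By rank among the 84, which include genes at the ceiling, Tlr7 was 6th and Tlr3 8th from the lowest. With each column centred on its median gene the differences were -1.45 for Tlr3, -1.65 for Tlr7, 0.20 for Tlr8 and 0.35 for Tlr9. With the Mock column labelled TLR7-/- as the control of both strains, an alternative chosen after seeing the data, they were -0.96, 0.14, 0.94 and 0.24. By these values 0 of the 4 genes lay 1 log2 unit lower. A shared control cancels, so they are only the differences between the strains after R848. They cannot check the differences of responses.

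In IFNAR-/- spleens the responses of Tlr8 and Tlr9 exceeded those of wild type by 1.72 and 1.97 log2 units, and that of Tlr7 differed by -0.33. Of the 69 genes with both responses measured, 44.9% were higher by at least 1 log2 unit and 4.35% lower. The median was 0.82 over those 69 genes and 0.77 over all 84. Tlr8 and Tlr9 thus lay on the side of the larger share of the plate, and Tlr7 did not. For Tlr3 the difference was no lower than -0.93, since its response in IFNAR-/- spleens is a lower limit. With each column centred on its median gene the differences were -1.15 for Tlr7, 0.90 for Tlr8 and 1.15 for Tlr9, so that Tlr7 passed 1 log2 unit downwards and Tlr8 no longer passed it.

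The Mock columns differed between strains. Spleens labelled TLR7-/- held more transcript than wild type after Mock for Tlr3, Tlr7 and Tlr8, at log2 differences of 1.5, 2.80 and 1.75, and 0.90 for Tlr9. In that comparison 48.8% of the 84 genes were at least 2-fold higher and 4.76% at least 2-fold lower, and the median gene was at 0.93. IFNAR-/- Mock spleens had 2.97-fold more Tlr7 transcript than wild-type Mock (log2 difference 1.57), the 2nd highest value of the 84 genes, in a comparison in which 4.76% of the plate lay 2-fold or more above wild type and 31.0% as far below. Tlr9 was 2.69-fold lower there (-1.43), Tlr8 was at -0.28, and Tlr3, at the ceiling, was at least 1.35-fold lower. The neighbouring genes Tlr7 and Tlr8 thus stood 1.85 log2 units apart in this comparison, a quantity that does not depend on the reference genes. Both Mock comparisons of Tlr7 rest on its wild-type Mock reading, which lay 1.15 cycles below the ceiling. With each column centred on its median gene, Tlr7 was at 1.78 in Mock spleens labelled TLR7-/- and at 2.33 in IFNAR-/- Mock spleens, and none of the other genes could be called 2-fold different from wild type in either. Tlr8 in IFNAR-/- Mock was then at 0.48, Tlr9 at -0.67, and the direction of Tlr3 could not be given.

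The strains were also compared after R848. None of the 4 differed by 2-fold between spleens labelled TLR7-/- and wild type, where 29.8% of genes were higher and 14.3% lower by that much, with values of -0.96 for Tlr3, 0.14 for Tlr7, 0.94 for Tlr8 and 0.24 for Tlr9. Tlr3 passed the 2-fold line with Hprt1 or Hsp90ab1 alone, at -1.10, and Tlr8 did so with Gapdh alone, at 1.20. IFNAR-/- spleens after R848 had 2.36-fold more Tlr7 and 2.71-fold more Tlr8 transcript than wild type, 2.57-fold less Tlr3 transcript and a log2 difference of 0.54 for Tlr9. On the whole plate 29.8% lay 2-fold or more above wild type and 15.5% as far below. Tlr3, at the 75th place, was the only gene of the 4 that was lower in IFNAR-/- R848 than in wild-type R848.

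The distance between any 2 of these genes within a column is free of the reference genes, and its change between R848 and Mock shows unequal change. In wild type the delta-Ct of Tlr7 exceeded that of Tlr8 by 2.10 cycles after R848 and by 3.75 after Mock, so that Tlr7 gained 1.65 log2 units (3.14-fold) on its neighbour. In spleens labelled TLR7-/- the distance was 2.90 after R848 and 2.70 after Mock, and in IFNAR-/- spleens 2.30 after R848 and 1.90 after Mock. The changes in these strains were -0.20 and -0.40 log2 units, with no replicate error to set them against. The distance in wild-type Mock was thus the widest, with every other column between 1.90 and 2.90. It rests on a Tlr7 reading 1.15 cycles below the ceiling and equal to that of Tlr3 in the same column. Those readings of Tlr7 and Tlr3 also enter their other wild-type gains given below.

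Against Tlr9, Tlr7 stood 5.50 cycles apart after R848 and 7.00 after Mock in wild type, a gain of 1.5 log2 units (2.83-fold), whereas the change was -0.50 in spleens labelled TLR7-/- and -0.80 in IFNAR-/- spleens. The distance of Tlr8 to Tlr9 changed by values of like size, -0.30 in spleens labelled TLR7-/-, -0.40 in IFNAR-/- spleens and -0.15 in wild type. Tlr3 gained 1.65 log2 units on Tlr8 and 1.5 on Tlr9 in wild type. In spleens labelled TLR7-/- the corresponding changes were 0.00 and -0.30. These changes could not be given in IFNAR-/- spleens because Tlr3 stood at the ceiling after Mock.

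**Figure D3:**
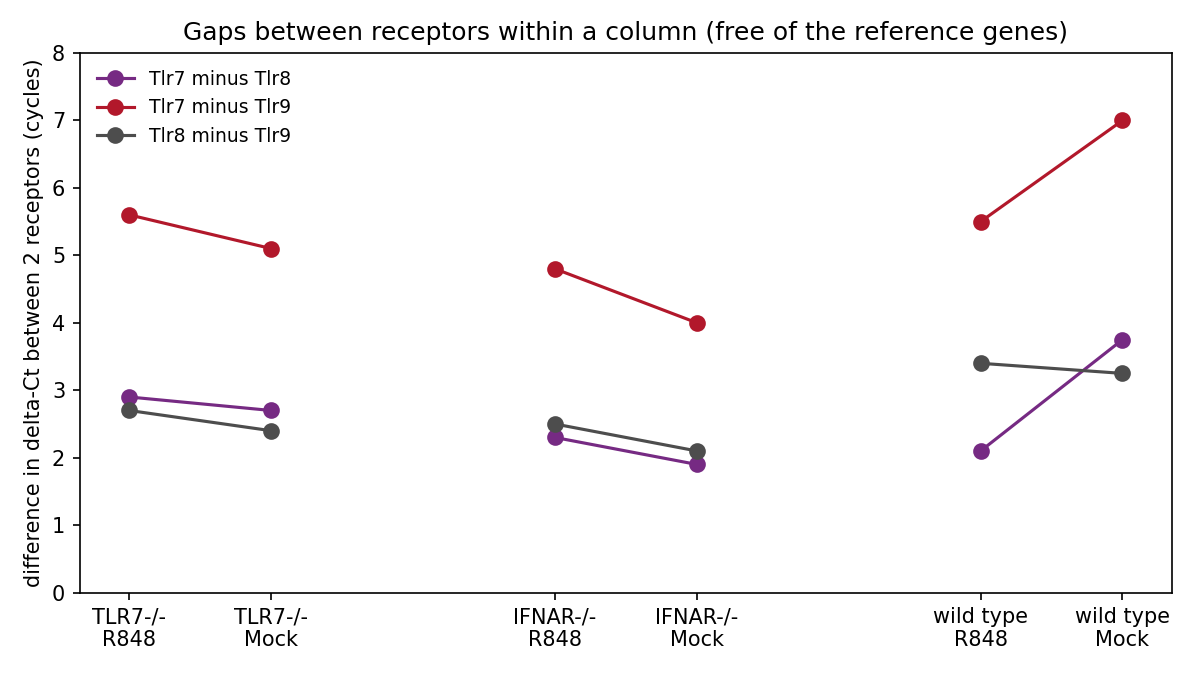
Distance in delta-Ct (cycles) between Tlr7, Tlr8 and Tlr9 taken in pairs, R848 left of Mock in each strain. The distance of Tlr7 to Tlr8 is 2.10 after R848 and 3.75 after Mock in wild type, against 2.30 and 1.90 in IFNAR-/- spleens and 2.90 and 2.70 in spleens labelled TLR7-/-, and that of Tlr8 to Tlr9 stays between 2.10 and 3.40 in all 6 columns.

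Genes of like pattern were sought by the root mean square difference (RMS) over the 6 columns, each gene centred on its own mean, among genes below the ceiling in every column. For Tlr3 the nearest were Irf1, an interferon-inducible transcription factor (RMS 0.225 cycles), Traf6, a ubiquitin ligase of TLR signalling (0.32), and Tollip, an inhibitor of that signalling (0.429), where the median over 69 genes was 0.884. These values and their order rest on the reading of Tlr3 at the ceiling in IFNAR-/- Mock, where its true level is not known. For Tlr9 they were Ticam2, the adaptor TRAM (0.207), Tnfrsf1a, a TNF receptor (0.274), and Il1r1, the interleukin-1 receptor (0.321), with a median of 0.777 over 68 genes. Tlr8 was nearest to Tlr2 (0.375), Ube2v1 (0.392) and Map2k4 (0.393), with a median of 0.698. Tlr7 had no gene as near, its closest being the kinase gene Mapk9 (0.529), Tlr8 (0.613) and the cytokine gene Il1a (0.621), with a median of 1.05. The measure has 6 points per gene that share their reference genes and samples, and it is a description.

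The 5 surface receptors on the plate were set beside the endosomal ones. At least 2-fold higher after R848 were 1 of 5 in spleens labelled TLR7-/-, 4 of 5 in IFNAR-/- spleens and 3 of 5 in wild type, none was 2-fold lower, and the direction of Tlr5 could not be given in any strain. Over the 84 genes the shares at least 2-fold higher were 4.76%, 53.6% and 38.1% in the same order. In wild type Tlr4, the receptor of lipopolysaccharide, had the highest log2 difference of the 84 genes, 4.58, followed among the surface receptors by Tlr1 at 3.13 and Tlr6 at 2.18, partners of TLR2 in lipopeptide sensing. Tlr2 was at 0.43. Tlr1, Tlr2, Tlr4 and Tlr6 in IFNAR-/- spleens were at 3.10, 2.00, 2.10 and 2.40. In spleens labelled TLR7-/- Tlr1 alone passed the 2-fold line, at 1.27.

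Downstream of TLR7, TLR8 and TLR9, 8 of 9 listed genes of the MyD88 arm were on the plate. At least 2-fold higher were 0 of 8 in spleens labelled TLR7-/-, 5 of 8 in IFNAR-/- spleens and 2 of 8 in wild type, and none was 2-fold lower. On the whole plate 4.76%, 53.6% and 38.1% were higher by that much in these strains. The wild-type pair was Traf6 (log2 difference 3.03) and the adaptor gene Myd88 (2.48). Myd88 in IFNAR-/- spleens was at 3.20, the kinase gene Irak2 at 2.30, Ikbkb, a kinase of the NF-kB pathway, at 2.00, Traf6 at 1.80 and the ubiquitin-conjugating enzyme gene Ube2n at 1.20. The direction of Irak1 could not be given in any strain.

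Downstream of TLR3, 4 of 5 listed genes of the TRIF arm were on the plate, of which 0 in spleens labelled TLR7-/-, 2 in IFNAR-/- spleens and 2 in wild type were at least 2-fold higher. These were Ticam1, at 3.70 in IFNAR-/- spleens and 2.28 in wild type, and Traf6, which both arms share. Tbk1, the kinase that activates IRF3, was at -0.13 in spleens labelled TLR7-/-, 0.80 in IFNAR-/- spleens and 0.03 in wild type. Irf3 itself was at -0.13, -0.10 and -0.87 in these strains. The plate shares at least 2-fold higher were 4.76%, 53.6% and 38.1%.

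Of 9 output genes, 0 in spleens labelled TLR7-/-, 7 in IFNAR-/- spleens and 3 in wild type were at least 2-fold higher, and 2 in wild type were at least 2-fold lower. Over the 84 genes 4.76%, 53.6% and 38.1% were higher by that much in these strains, and 13.1% in wild type were lower. The wild-type genes that were higher were Il10, an anti-inflammatory cytokine gene (4.23), Eif2ak2, an interferon-inducible kinase gene (3.83), and Irf1 (1.93), and those that were lower were the cytokine genes Il12a (-1.27) and Il6 (-1.12). With Hsp90ab1 as the only reference gene neither of the 2 was 2-fold lower. Cxcl10, an interferon-inducible chemokine gene, was at 5.50 in IFNAR-/- spleens and -0.27 in wild type. Eif2ak2 in IFNAR-/- spleens was at 4.70, Irf1 at 1.40, Il10 at 7.60 or more, Il6 at 3.80 or more and Il12a at 0.30. The direction of Ifnb1, the gene of interferon beta, could not be given in any strain. With each column centred on its median gene, the counts of higher genes in IFNAR-/- spleens were 1 of 5 surface receptors, 1 of 8 MyD88-arm genes, 1 of 4 TRIF-arm genes and 5 of 9 outputs, and those at least 2-fold lower were 0, 2, 2 and 1 in the same order of lists. Of the 84 genes 14 were then higher and 29 lower.

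Cell type markers on the plate were set beside these readings. Levels are summed here per 1000 of the reference-gene mean. The myeloid markers Clec4e, Tlr2, Tlr4 and Ly96 summed to 90.1 after R848 and 79.0 after Mock in spleens labelled TLR7-/-, to 106 after R848 and 24.5 after Mock in IFNAR-/- spleens, and to 71.1 after R848 and 30.4 after Mock in wild type. Myeloid sums were thus lowest in IFNAR-/- Mock and wild-type Mock, the columns in which all 4 receptor genes were lowest. Clec4e, Tlr2 and Tlr4 each had their lowest levels in those columns as well. Ly96 did not follow the sum. Its delta-Ct of 5.70 in wild-type Mock was its highest level of the 6 columns, and its 6.73 in IFNAR-/- Mock its lowest. The plate as a whole also read lowest in IFNAR-/- Mock and wild-type Mock, with a median delta-Ct over the 84 genes of 8.23 and 7.475. In every other column that median lay between 6.18 and 6.45. These sums leave out markers in the first 4 wells of the plate, a choice made after seeing the data, which removes Cd14, the 5th myeloid marker read. Cd14 stood at the ceiling in 2 columns, labelled TLR7-/- Mock and IFNAR-/- R848. Its log2 difference was at least 9.37 in spleens labelled TLR7-/- and -6.80 or lower in IFNAR-/- spleens. Clec4e, Tlr2, Tlr4 and Ly96 were at 0.07, 0.47, -0.43 and -0.03 in the former, and at 3.60, 2.00, 2.10 and 0.90 in the latter. In wild type Cd14 was at 1.13, and the others, in that order, at 1.48, 0.43, 4.58 and -0.12. With Cd14 the sums were 109 after R848 and 79.0 after Mock in spleens labelled TLR7-/-, 106 after R848 and 28.1 after Mock in IFNAR-/- spleens, and 102 after R848 and 44.5 after Mock in wild type. The other 2 of the 7 listed myeloid markers were not on the plate.

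Of 5 listed B cell markers only Ly86 and Btk were on the plate. Ly86, which myeloid cells also express, read 122 after R848 and 125 after Mock in spleens labelled TLR7-/-, 99.4 after R848 and 65.6 after Mock in IFNAR-/- spleens, and 132 after R848 and 183 after Mock in wild type. Its log2 difference in wild type was -0.47, within 2-fold, and it was 0.05 with Hsp90ab1 alone. Btk, a kinase gene of B cells that lies in the first 4 wells, was 2.97-fold lower after R848 in wild type (log2 difference -1.57), and it stood at the ceiling in all 4 columns of the deficient strains. The 3 T and NK cell markers on the plate, Il2, Ifng and Lta, summed to 20.8 after R848 and 20.2 after Mock in spleens labelled TLR7-/-, 7.62 after R848 and 6.37 after Mock in IFNAR-/- spleens, and 5.31 after R848 and 12.2 after Mock in wild type. The single stromal marker, Ppara, read at most 0.286 in any column. In whole spleen, a change in the number of cells that express a gene and a change in transcript per cell cannot be told apart, and the part of cell composition in the readings of the 4 genes was not tested.

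**Figure D4:**
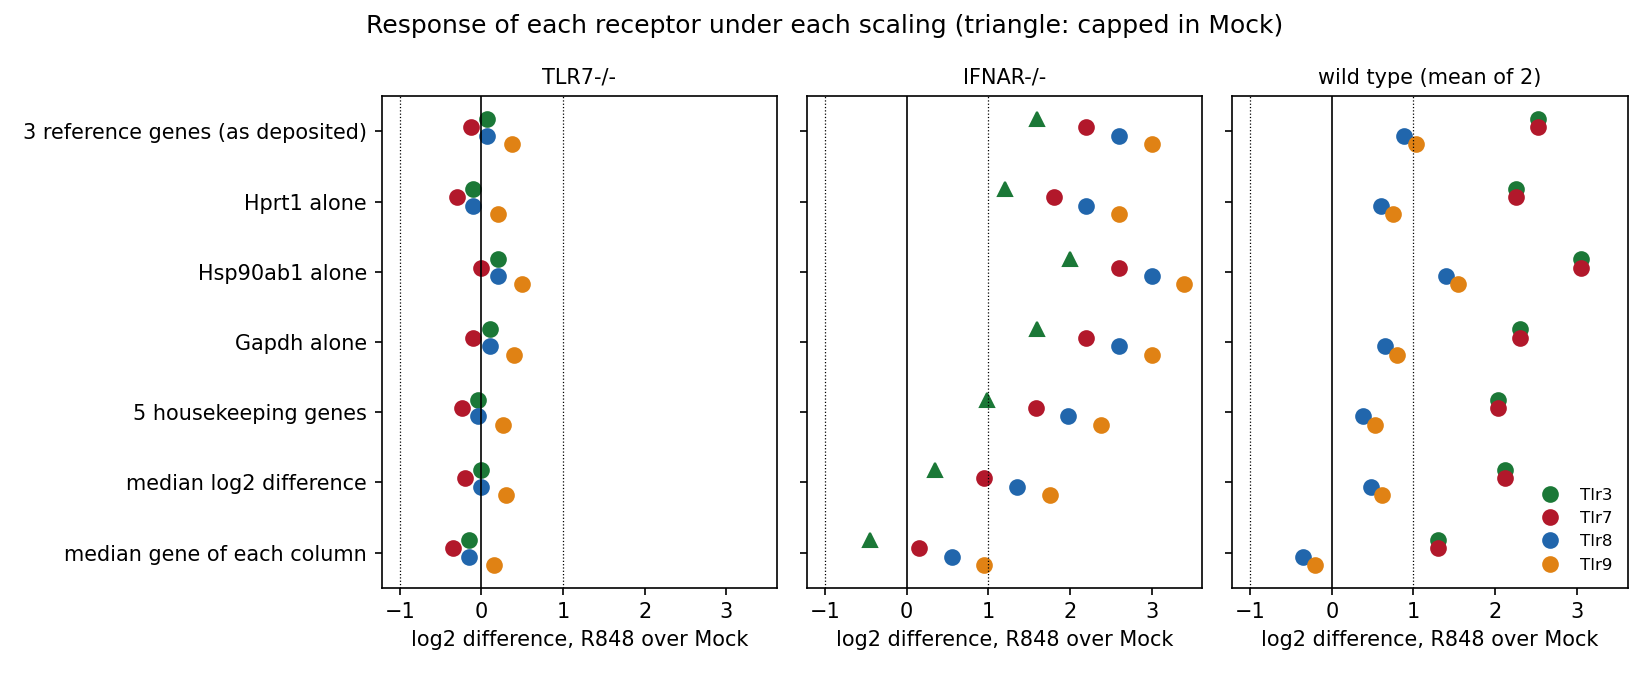
Log2 difference of R848 over Mock for the 4 genes under each scaling, by strain, with the 2-fold lines dotted and triangles for lower limits. In wild type Tlr3 and Tlr7 stay between 1.30 and 3.05 in every scaling drawn, and Tlr9 crosses the 2-fold line.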

How the data were processed

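Each sample was RNA of 3 mice, pooled after extraction and freed of DNA; oligo(dT) primed the cDNA, and each well amplified 50 ng of RNA, per the labels' protocols. The deposited tables, 1 for each of 3 strains, hold delta-Ct values on a log2 scale, which per the file headers are relative to the reference genes. The authors' fold difference of R848 over Mock stands beside them, and it was recomputed and matched for 89 of 89 genes in each table within 0.01 of a fold or 0.01 cycles. The series' design text says that Ct readings past 35, or missing, were replaced by 35, and that wild-type values summarise 2 experiments. The 6 delta-Ct columns entered the results. The tables' other 6 columns with values of a sample are powers of delta-Ct and were not used. Values of the separate experiments and raw Ct values were not analysed here, so the error of a reading is unknown.

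A log2 difference subtracts the delta-Ct of R848 from that of Mock, or that of the deficient strain from that of wild type. A delta-Ct shared by at least 3 genes as the highest of a column was taken as the Ct limit of 35, from which the mean reference Ct and each gene's Ct were rebuilt. With the lower group at that limit a fold is given as "at least", and where the group at the limit was the higher one, or both stood at it, the direction is not given. A gene was called at 2-fold, and a difference between responses at 1 log2 unit. The calling was run on simulated plates without reading error, each with a ceiling that could be found. Those plates held no mean of 2 experiments and no column without a ceiling, so they check the arithmetic alone. The names in the text are the 4 receptor genes, the listed pathway genes and markers, the housekeeping genes, and for each receptor gene the 3 genes of smallest RMS. The members and lists were chosen with earlier results of these data known. As alternatives, values were scaled to Hprt1, Hsp90ab1 or Gapdh alone, to the 5 housekeeping genes or to each column's median gene, thresholds of 1.5-fold and 3-fold were used, genes at the limit were left out, and the Mock column labelled TLR7-/- served as control. Chosen after seeing the data were centring on the median log2 difference, rebuilt Ct without reference genes, the Mock column labelled TLR7-/- as the control in differences of responses, and marker sums without the first 4 wells. Python 3.11.15, pandas 2.3.3, numpy 2.4.6 and matplotlib 3.10.9 were used.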

Additional observations from a re-analysis of the deposited data

Results flagged for a closer look

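The response of Tlr7 to R848 was -0.13 on the log2 scale in spleens labelled TLR7-/- and 2.53 in wild type, a difference of -2.66, with opposite signs in the 2 strains. The difference was not tested, and the value in spleens labelled TLR7-/- is close to the reading step of 0.1 cycles. The wild-type value rests on a Mock reading 1.15 cycles below the ceiling, the same as that of Tlr3.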

How the results depend on the processing

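No paired analysis was possible because the table gives the wild-type experiments only as their mean, and for the same reason no replicate could be left out. In spleens labelled TLR7-/- the median log2 difference of the 4 genes, 0.07, was -0.10 with Hprt1, 0.20 with Hsp90ab1, -0.04 with all 5 housekeeping genes, -0.15 with columns centred on the median gene and 0.60 without reference genes. In IFNAR-/- spleens the median of 2.40 was 2.00 with Hprt1, 2.80 with Hsp90ab1, 1.78 with 5 housekeeping genes, 0.35 centred on the median gene, 1.15 centred on the median log2 difference, 4.90 without reference genes, 2.6 without genes at the Ct limit and 0.62 with the Mock column labelled TLR7-/- as control. The 4 genes called higher there became 0 centred on the median gene, 2 centred on the median log2 difference and 0 against that other Mock column. In wild type the median of 1.78 was 1.5 with Hprt1, 2.30 with Hsp90ab1, 1.55 with Gapdh, 1.28 with 5 housekeeping genes, 0.55 centred on the median gene, 1.38 centred on the median log2 difference and 5.30, as a lower limit, without reference genes. Against the Mock column labelled TLR7-/- it was -0.07, and 1 gene in place of 3 was called higher. The 2 genes whose response was lower by 1 log2 unit in spleens labelled TLR7-/- than in wild type became 4 with Hsp90ab1 and without reference genes. With the Mock column labelled TLR7-/- as the control of both strains they became 0, and the difference of Tlr7 was 0.14. That column cancels in this setting, which compares the strains after R848 alone and cannot check the responses. Centred on the median gene, the differences of Tlr8 and Tlr9 turned to 0.20 and 0.35. Centred on the median gene, Tlr9 in wild type was at -0.20 and Tlr3 in IFNAR-/- spleens had a lower limit of -0.45. Against the Mock column labelled TLR7-/-, Tlr7 in wild type was at -0.27 and Tlr3 in IFNAR-/- spleens at -0.33. The cause of these changes was not tested. Distances between genes within a column and the RMS do not change with the scaling, by construction.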
